A study of Mus musculus with 2 samples.

Results

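The variable (V) genes of the T cell receptor were read as every gene whose symbol starts with Trav or Trbv, which gave 163 of the 32285 genes counted, 128 Trav genes of the alpha chain on chromosome 14 and 35 Trbv genes of the beta chain on chromosome 6. An alpha and a beta chain together form the receptor by which most T cells recognise a peptide on a major histocompatibility complex molecule. Each chain gene is assembled in the thymus by joining 1 of many V segments to a joining segment (with a diversity segment between them in the beta chain) ahead of a constant region, and all descendants of a T cell keep the same joined genes. The V genes counted in a cell therefore describe the receptor of its lineage, although not the joined sequence that defines a clone.

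The cells came from 2 single-cell libraries of immune cells sorted from mouse brains. The labels give the tissue as brain, although their sorting step speaks of lung immune cells, and both samples were taken as brain here. All mice had received 100000 cells of GL261, a mouse glioma line, and 200 µg of anti-PD-1, an antibody against the inhibitory receptor PD-1, on days 10, 13 and 16, and brains were taken on day 20. Of the libraries, 1 came from wild-type mice and the other from mice labelled Fcgr2b knockout, each from the pooled cells of 5 brains, so a cell could not be tied to its mouse. Sorting kept live CD45.2-positive cells, and a 5' kit was used, in which reads start at the 5' end of a transcript, where the V segment lies. The sources used here do not state the strain, age or sex of the mice. With 1 library per genotype, nothing was tested between genotypes, and all intervals are exact 95% intervals that cover counting error only.

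The wild-type library held 14170828 UMIs (unique molecular identifiers, 1 per captured transcript) in 3854 barcodes and the library labelled Fcgr2b knockout 50921793 in 9194, and 3538 and 8145 cells were kept, with medians of 2601 and 3954 UMIs. The libraries shared 46 barcode sequences, of which 5 were T cells of the classes below in both, none with a Trbv gene in both. Fcgr2b itself was counted in macrophages and monocytes of both libraries, at 339 and 205 CPM (the UMIs of a gene scaled to a fixed total for all genes), and the sources used here do not say which part of the gene was deleted, so those counts do not check the label. The libraries also differ in the molecule their labels name, polyA RNA for wild type and total RNA for Fcgr2b knockout.

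T cells were taken as cells with a UMI of Cd3d, Cd3e or Cd3g, the CD3 chains of the receptor complex, and split in 3 classes. CD8 cells lacked Cd4 UMIs and had at least 1 of Cd8a or Cd8b1 (543 in the wild-type library, 1569 in that labelled Fcgr2b knockout). Cd4-positive cells without a Foxp3 UMI numbered 389 and 653. Foxp3-positive cells had a UMI of Foxp3, the transcription factor of regulatory T cells, and numbered 196 and 366. That class needed no Cd4 UMI, but cells with a Cd8 and no Cd4 UMI stayed in the CD8 class. The regulatory T cell markers Foxp3, Il2ra, Ctla4, Ikzf2 and Tnfrsf18 summed to 4766 and 3910 CPM in the Foxp3-positive class, against 1837 and 1426 CPM in the Cd4-positive Foxp3-negative class and 1037 and 746 CPM in CD8 cells. The 6 macrophage or monocyte markers summed to between 62.7 and 75.4 CPM in the 3 wild-type classes and to between 157 and 485 CPM in those of the library labelled Fcgr2b knockout.

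The germline segments that the results turn on are shown by their last 90 coding bases, which end at the point of joining. They come from GENCODE M21 transcripts on GRCm38, the build of the files. The Trbv13 genes are shown because neighbouring, similar genes had very different use in CD8 cells; the segments lie on the plus strand at chr6:41116379-41116468 (Trbv13-1), chr6:41121743-41121832 (Trbv13-2) and chr6:41130496-41130585 (Trbv13-3), and capitals mark the 22 positions that are not the same in all members of the set.
Trbv13-1: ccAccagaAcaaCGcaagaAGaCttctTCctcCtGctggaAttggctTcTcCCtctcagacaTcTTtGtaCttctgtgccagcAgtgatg
Trbv13-2: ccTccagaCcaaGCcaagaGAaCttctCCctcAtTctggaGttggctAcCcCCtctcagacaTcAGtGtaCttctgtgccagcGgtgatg
Trbv13-3: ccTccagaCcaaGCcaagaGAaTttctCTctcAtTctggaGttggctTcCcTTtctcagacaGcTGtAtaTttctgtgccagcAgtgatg
Over the whole coding segment Trbv13-3 was 90.6% identical to Trbv13-2 and 85.3% identical to Trbv13-1, and all 90-base stretches of each of the 35 Trbv transcripts were found in no other V gene transcript.

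Trav13-1 and Trav3-3 led the alpha chains of the same cells, and they are shown with a copy each, because the mouse Trav locus holds duplicated blocks whose members carry the letter d or n. Trav13-1 lies at chr14:53545436-53545525, Trav13n-1 at chr14:53162821-53162910, Trav3-3 at chr14:53666417-53666506 and Trav3d-3 at chr14:52972949-52973038, all on the plus strand, and capitals mark positions that differ within a gene and its d and n copies.
Trav13-1: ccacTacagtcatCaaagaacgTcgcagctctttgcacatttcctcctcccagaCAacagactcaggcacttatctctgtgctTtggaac
Trav13n-1: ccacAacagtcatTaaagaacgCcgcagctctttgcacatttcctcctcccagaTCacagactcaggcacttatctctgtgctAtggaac
Trav3-3: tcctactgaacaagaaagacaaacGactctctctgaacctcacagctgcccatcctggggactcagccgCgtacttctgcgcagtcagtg
Trav3d-3: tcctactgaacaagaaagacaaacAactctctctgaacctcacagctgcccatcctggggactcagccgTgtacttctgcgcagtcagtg
Trav13-1 was 96.1% identical to Trav13n-1, Trav3-3 was 98.8% identical to Trav3d-3, and Trav3d-3 and Trav3n-3 were 100% identical in coding sequence, so counts of such copies are uncertain.

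Trbv19 and Trbv31 led the Cd4-positive Foxp3-negative cells and are shown for that reason, with the last in-frame TGT, a cysteine codon, in capitals. They lie at chr6:41178959-41179048 on the plus strand and at chr6:41557693-41557782 on the minus strand.
Trbv19: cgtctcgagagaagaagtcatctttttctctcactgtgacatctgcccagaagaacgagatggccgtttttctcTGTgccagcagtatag
Trbv31: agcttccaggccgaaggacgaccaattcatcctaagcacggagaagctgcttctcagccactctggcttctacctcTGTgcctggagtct

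Of the 35 Trbv genes, 24 had at least 1 UMI in the 3 classes, and of the 128 Trav genes, 72 did. The beta chain gave 216 V UMIs with wild type and 4302 with Fcgr2b knockout as the label, and the alpha chain 122 and 2062. The annotation names 13 Trbv and 20 Trav genes as pseudogenes, and these took 0.111% of Trbv and 0.549% of Trav UMIs. Trbv21 was the 1 Trbv gene annotated as functional that had no UMI in any class of either library. All 38 Trav genes without a 90-base stretch of their own had 0 UMIs, so what they contribute cannot be told apart from their copies.

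V genes were recovered far more often in the library labelled Fcgr2b knockout. In CD8 cells a Trbv UMI was found in 11.4% of wild-type cells (8.87 to 14.4%) and in 53.2% of the other (50.7 to 55.7%), in Cd4-positive Foxp3-negative cells in 20.3% and 60.5%, and in Foxp3-positive cells in 9.18% and 41.8%. Trav UMIs were found in 8.84% and 37.3%, 11.8% and 37.5%, and 5.1% and 43.4% of the same classes. For a check at equal depth, cells below 1500 UMIs were left out, the others were thinned to 1500 UMIs, and the classes were set again from the thinned counts. The Trbv shares were then 4.59% and 26.4%, 7.26% and 32.2%, and 4.9% and 16.3%, so the gap was present at equal depth. Macrophages and monocytes without a CD3 UMI, which do not rearrange these genes, held a Trbv UMI in 0 of 362 cells (median 3618 UMIs) and in 82 of 2600 cells (3.15%, 2.52 to 3.9%, median 4872 UMIs). The source of the UMIs in these cells was not tested.

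Counted against the constant region of the same chain, the gap was as wide. CD8 cells had 2.18 Trbv UMIs (1.73 to 2.72) per 100 UMIs of Trbc1 and Trbc2, the beta constant genes, in the wild-type library and 28.1 (26.8 to 29.4) in the other, a ratio of 12.9. Trav UMIs per 100 UMIs of Trac, the alpha constant gene, were 4.84 and 26.2, a ratio of 5.41. The constant genes themselves gave 6.75 and 5.57 Trbc UMIs per CD8 cell. The same direction held outside T cells: B cells had 17.8 and 59.6 Igkv UMIs per 100 Igkc UMIs, the V and constant genes of the kappa light chain. These ratios come from 73 B cells with 24776 Igkc UMIs and 111 with 3318, so the 2 sets also differed widely in Igkc per cell. Genotype and library cannot be told apart here, and the following comparisons therefore use the share of each gene among cells whose V gene was seen, not its level. A share does not remove a recovery gap that differs between genes, which was not tested. Trbv13-3 and Trav13-1, which led no wild-type CD8 cell, have no annotated 5' UTR, the transcript part before the coding sequence. Of 39 functional Trav genes without one, 8 had a UMI for wild type and 22 for the other label. Of 69 with one, 31 and 43 did. For Trbv it was 3 and 5 of 5 without one, and 16 and 16 of 17 with one.

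**Figure D1:**
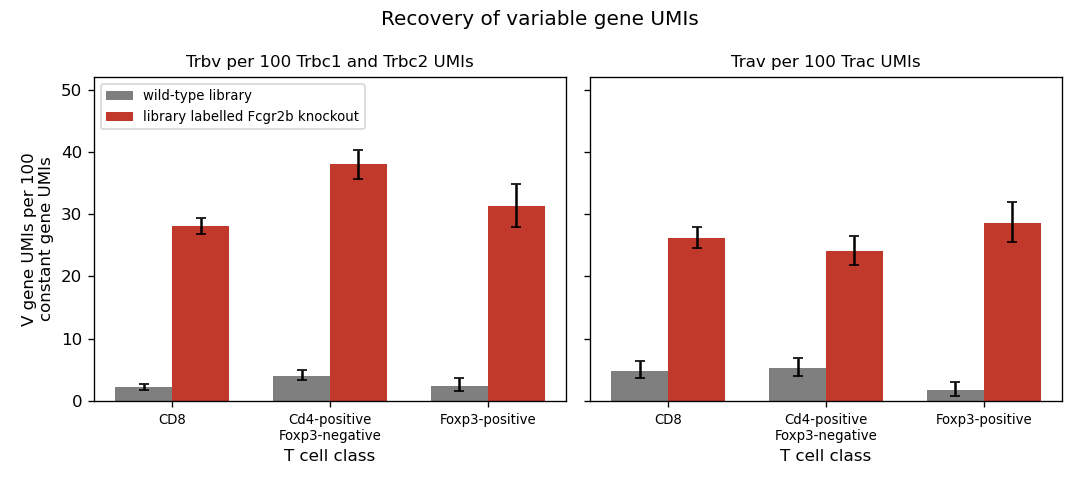
V gene UMIs per 100 constant gene UMIs (vertical axis) in the 3 T cell classes (horizontal axis), for Trbv on the left and Trav on the right. Bars are the 2 libraries, 1 value each. Intervals are exact 95% Clopper-Pearson intervals of the V share of V and constant gene UMIs, turned into the same ratio. In CD8 cells Trbv stood at 2.18 for wild type and at 28.1 for the other library.

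Each cell was given the V gene with most UMIs of the chain, and ties were left out. This placed 62 CD8, 73 Cd4-positive Foxp3-negative and 17 Foxp3-positive cells of the wild-type library on a Trbv gene, and 799, 374 and 147 of the library labelled Fcgr2b knockout. For Trav the numbers were 45, 44 and 10, and 523, 212 and 139. A gene seen in no cell of the wild-type library could still have a share, taking 3 cells as the limit, of up to 4.84% in CD8, 4.11% in Cd4-positive Foxp3-negative and 17.6% in Foxp3-positive cells for Trbv.

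Trbv13-3 was the most used beta chain gene of CD8 cells in the library labelled Fcgr2b knockout. It led 245 of 799 cells (30.7%, 27.5 to 34.0%) and took 30.9% of Trbv UMIs. No CD8 cell of the wild-type library was led by it (0 of 62, upper bound of the interval 5.78%). Its share in the other library was 6.34-fold the limit of 3 cells (4.84%), and a smaller multiple of that upper bound. In the other classes the intervals of the libraries overlapped. Trbv13-3 led 6.85% (5 cells, 2.26 to 15.3%) and 7.49% (28 cells, 5.03 to 10.6%) of Cd4-positive Foxp3-negative cells. Among Foxp3-positive cells it led 5.88% (1 of 17, 0.149 to 28.7%) and 8.16% (12 cells, 4.29 to 13.8%), too few in wild type to compare. Within the library labelled Fcgr2b knockout, the CD8 interval of Trbv13-3 lay above those of both other classes. Among macrophages and monocytes of that library, Trbv13-3 was the most frequent Trbv gene too, in 9 cells. Counting every pair of Trav and Trbv genes once in place of every cell left Trbv13-3 at 8.78% of 148 CD8 pairs.

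The neighbours of Trbv13-3 were used differently. Trbv13-1, upstream of the other Trbv13 genes, led 12.9% of CD8 cells in the wild-type library (8 cells, 5.74 to 23.9%) and 14.3% in the other (114 cells, 11.9 to 16.9%), against 5.48% and 7.49% of Cd4-positive Foxp3-negative cells. Trbv13-2, which lies between Trbv13-1 and Trbv13-3, led 6.45% and 1.88% of CD8 cells, 9.59% and 6.95% of Cd4-positive Foxp3-negative cells, and 11.8% and 15.6% of Foxp3-positive cells. In the library labelled Fcgr2b knockout it was the leading gene of Foxp3-positive cells (23 of 147, 10.2 to 22.5%), with an interval above that of CD8 cells (1.05 to 3.08%). Trbv12-2 was the leading gene of wild-type CD8 cells at 17.7% (11 cells, 9.2 to 29.5%) and led 8.39% of those in the other library (6.56 to 10.5%), intervals that overlap. The 6 genes from Trbv12-1 to Trbv13-3 together led 38.7% of CD8 cells in the wild-type library (26.6 to 51.9%) and 59.1% in the other (55.6 to 62.5%), but 27.4% and 26.5% of Cd4-positive Foxp3-negative cells. Without Trbv13-3 the other 5 led 38.7% of wild-type CD8 cells and 28.4% of those in the other library (227 of 799, 25.3 to 31.7%), so the direction of that sum turned without it and the intervals overlapped.

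Trbv19 and Trbv31 were the most used beta chain genes of Cd4-positive Foxp3-negative cells in both libraries. Trbv19 led 16.4% of these cells in the wild-type library (12 of 73, 8.79 to 27.0%) and 25.7% in the other (96 of 374, 21.3 to 30.4%). It led 1.61% (1 cell) and 5.13% (41 cells, 3.71 to 6.9%) of CD8 cells, and in each library the CD8 interval lay below that of the Cd4-positive Foxp3-negative cells. Foxp3-positive cells were at 17.6% (3 of 17) and 14.3% (21 of 147, 9.07 to 21%). In the wild-type library no Trbv19 cell remained among 9 distinct pairs, and thinning to 1500 UMIs left 6.67% of 15 cells, so the wild-type value rests on few cells.

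Trbv31, the last Trbv gene of the locus and the only Trbv gene on the minus strand, led 15.1% (11 cells, 7.77 to 25.4%) and 11.0% (41 cells, 7.98 to 14.6%) of Cd4-positive Foxp3-negative cells. Among CD8 cells it led 6.45% (4 cells) and 1.63% (13 cells, 0.869 to 2.77%). In the library labelled Fcgr2b knockout the intervals of these classes did not overlap, and in the wild-type library they did. Among Foxp3-positive cells it led 0 of 17 and 8 of 147 (5.44%, 2.38 to 10.4%), and the latter interval overlaps those of both other classes. Trbv1, the first gene of the locus, led 12.3% and 5.08% of Cd4-positive Foxp3-negative cells and 4.84% and 2.5% of CD8 cells, with overlapping intervals between the libraries in both classes. Trbv3 led 5.48% and 8.82% of Cd4-positive Foxp3-negative cells and 8.06% and 3.0% of CD8 cells, again with overlapping intervals between the libraries.

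In the library labelled Fcgr2b knockout the share of Trbv20 was highest in Foxp3-positive cells, where it led 16 of 147 cells (10.9%, 6.35 to 17.1%), above the 1.87% of Cd4-positive Foxp3-negative cells (0.756 to 3.82%) and the 3.38% of CD8 cells (27 cells, 2.24 to 4.88%) of that library. The wild-type library had no Foxp3-positive cell led by it, out of 17 (upper bound 19.5%), and 2 CD8 and 3 Cd4-positive Foxp3-negative cells. Trbv15 and Trbv16 ranged from 2.75 to 8.22% and from 1.37 to 11.8% over the 6 groups, and Trbv2 from 1.37 to 5.88%. Trbv14 led at most 2.5% of any group.

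**Figure D2:**
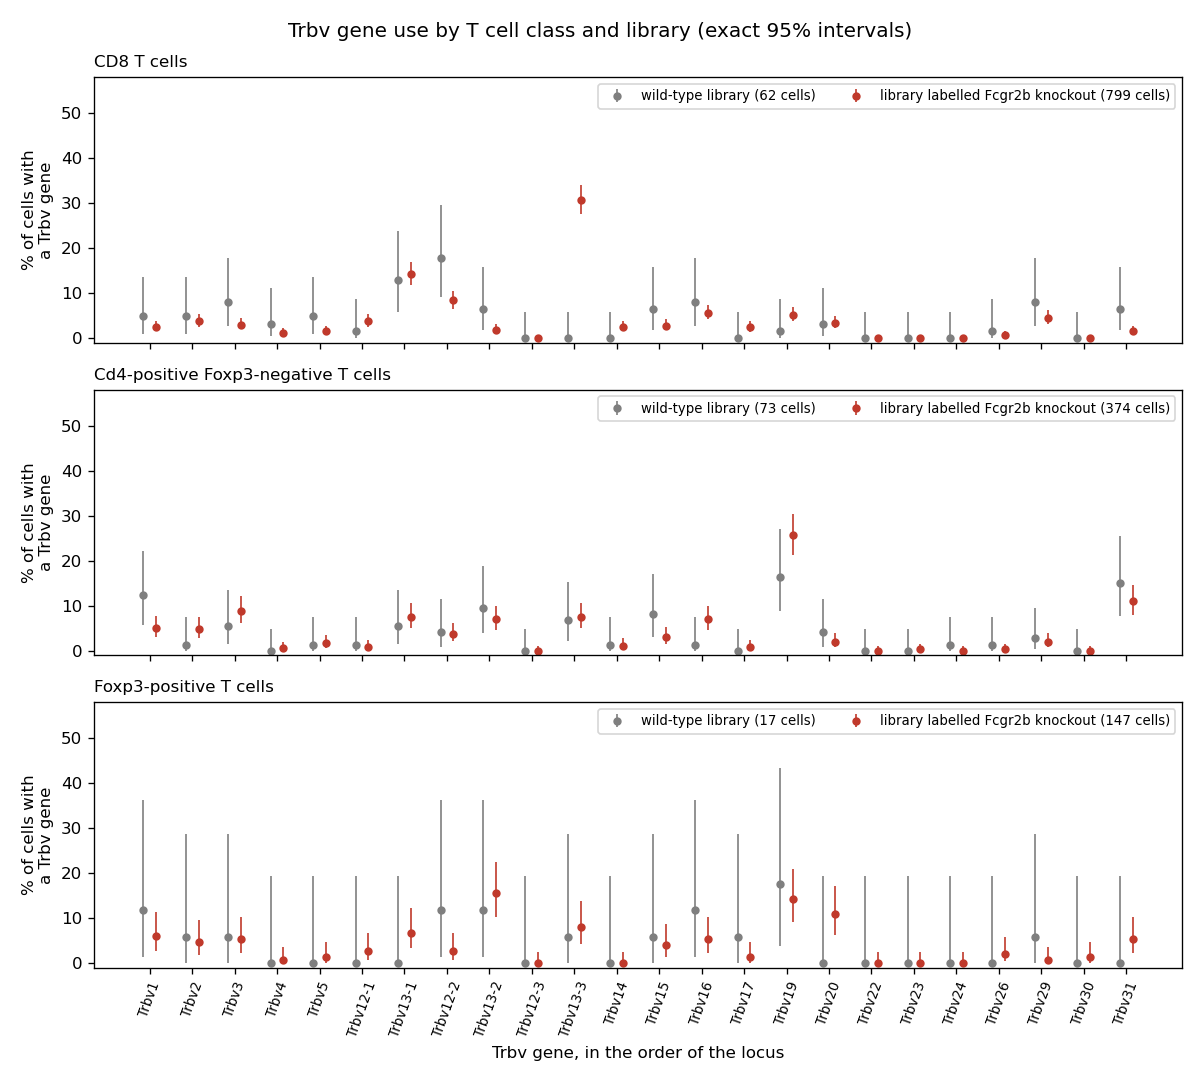
Share of cells with a Trbv gene that were led by each gene (vertical axis, percent), for the 24 Trbv genes that led any cell, in locus order (horizontal axis); panels are T cell classes, grey the wild-type library and red the library labelled Fcgr2b knockout, with exact 95% intervals. Trbv13-3 stood at 30.7% in red and 0 in grey among CD8 cells, and Trbv19 and Trbv31 were high in both libraries among Cd4-positive Foxp3-negative cells.

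The spread of beta chain use was narrower in CD8 cells of the library labelled Fcgr2b knockout. It is given as the effective number of genes, the number of equally used genes that would give the same chance of 2 cells sharing a gene. That number was 7.32 for CD8 cells, 8.88 for Cd4-positive Foxp3-negative cells and 12.4 for Foxp3-positive cells of that library. Without the cells led by Trbv13-3 it was 11.2 for CD8 cells. In the wild-type library it was 13.3, 11.8 and 19.4, the last from 17 cells. The 3 most used genes held 53.3% of CD8 cells in the library labelled Fcgr2b knockout and 38.7% in the wild-type library.

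Between groups, the total variation distance is the percentage of cells that would have to change gene for 2 groups to match. For Trbv it was 43.1% between the libraries in CD8 cells, 26.1% in Cd4-positive Foxp3-negative cells and 37.5% in Foxp3-positive cells. Within the library labelled Fcgr2b knockout it was 46.2% between CD8 and Cd4-positive Foxp3-negative cells and 26.3% between Foxp3-positive and Cd4-positive Foxp3-negative cells. A small group raises this distance. Across the 21 Trbv genes used by Cd4-positive Foxp3-negative cells of either library, shares had a Pearson r of 0.79 and a Spearman rho of 0.80, and across the 22 used by CD8 cells 0.14 and 0.48. These are descriptions across genes, which are not independent replicates.

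Among alpha chains, Trav3-3 was used in every group. It led 11.1%, 6.82% and 10% of the CD8, Cd4-positive Foxp3-negative and Foxp3-positive cells in wild type (5, 3 and 1 cells) and 15.3%, 9.43% and 9.35% of those in the other library (80, 20 and 13 cells). Trav13-1 led 101 of 523 CD8 cells of the library labelled Fcgr2b knockout (19.3%, 16.0 to 23.0%) and 3.77% and 5.04% of the other classes (8 and 7 cells). It led 0 of 45 wild-type CD8 cells (upper bound 7.87%) and 2 wild-type Cd4-positive Foxp3-negative cells. Its CD8 share in the other library was 2.9-fold the limit of 3 cells (6.67%), and a smaller multiple of that upper bound. Joining Trav13-1 with its d and n copies gave 23.4% of CD8 cells in the library labelled Fcgr2b knockout, and counting each pair once gave 6.76%.

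Other alpha genes were spread more evenly. Trav4-4-dv10 led 54 CD8 cells of the library labelled Fcgr2b knockout (10.3%, 7.85 to 13.3%), against 3.3% of Cd4-positive Foxp3-negative cells (1.34 to 6.68%). Among Foxp3-positive cells of that library it led 9 of 139 (6.47%, 3.0 to 11.9%), an interval that overlaps the CD8 one. It led 4.44% of wild-type CD8 cells (2 cells). Trav3-1 led 15.6% of wild-type CD8 cells (7 of 45, 6.49 to 29.5%) and 2.87% of those in the other library (1.61 to 4.69%), intervals that do not overlap, and after thinning it led 6.25% of 16 wild-type cells. Trav7-4, the leading alpha gene of wild-type Cd4-positive Foxp3-negative cells, did so with 4 of 44 cells, and with none of the 6 cells that had 2 UMIs of their leading gene. Trav14-1, Trav7-3, Trav7-4 and Trav6-7-dv9 led between 3.3% and 5.66% of Cd4-positive Foxp3-negative cells and at most 1.53% of CD8 cells in the library labelled Fcgr2b knockout. In Foxp3-positive cells of that library Trav14d-3-dv8 and Trav4-3 each led 8 cells (5.76%, 2.52 to 11.0%). The remaining named genes, Trav10, Trav9-1, Trav3-4, Trav5-4, Trav14-2, Trav14-3, Trav6-2, Trav7d-3, Trav13n-4 and Trav21-dv12, led at most 6.13% of any class of that library.

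Some V genes are known from unconventional T cells. Trav11, whose product pairs in invariant natural killer T cells, and its copies Trav11d and Trav11n had 0 UMIs in all 6 groups; 0.394% of the 90-base stretches of Trav11 and none of those of Trav11d are unique, so reads of Trav11 and Trav11d may not have been counted, while all those of Trav11n, a pseudogene, are unique. Zbtb16, the transcription factor that marks those cells, was between 0 and 3.27 CPM. Trav1, used by mucosal-associated invariant T cells as well as by other T cells, led 1 cell each in wild-type CD8 and Cd4-positive Foxp3-negative cells, and 2.1%, 0.472% and 2.88% of the classes of the other library (11, 1 and 4 cells).

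Most Trav use lay at 1 end of the locus. The 47 genes after the last n copy led 71.3%, 73.6% and 68.3% of the CD8, Cd4-positive Foxp3-negative and Foxp3-positive cells in the library labelled Fcgr2b knockout, and the 73 genes from the first d copy to the last n copy 20.1%, 20.8% and 25.9%. The wild-type library had 66.7%, 65.9% and 80% after the last n copy. The d and n copies have medians of 0.403% and 1.14% unique 90-base stretches, against 90.3% for genes without a copy letter, and gave 273 and 184 UMIs against 1727. Their low counts and their near identity move together, and the part of the latter was not tested.

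**Figure D3:**
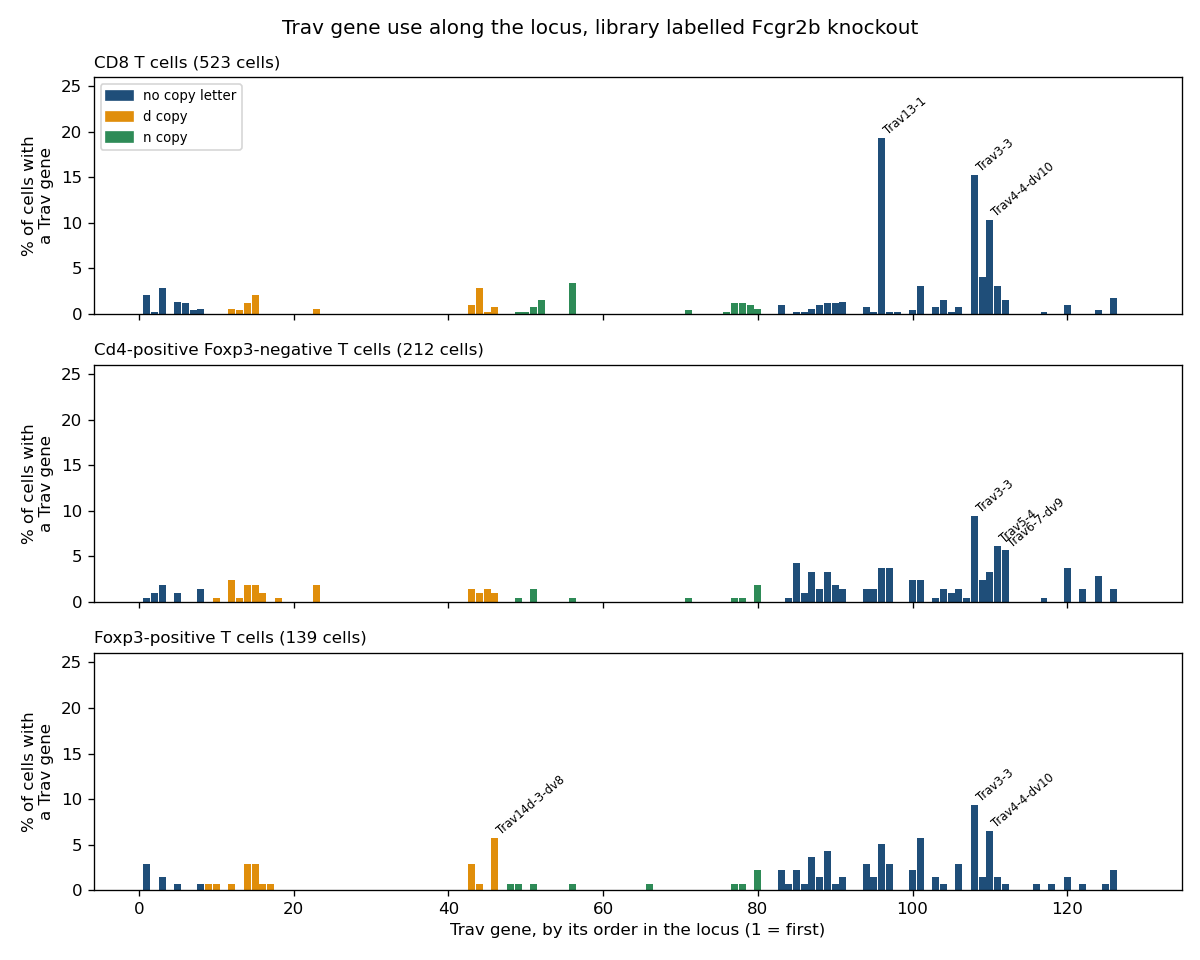
Share of cells with a Trav gene led by each gene (vertical axis, percent) along the order of the 128 Trav genes (horizontal axis), in the library labelled Fcgr2b knockout; panels are T cell classes and colours the copy letter, with the 3 highest genes named. Trav13-1 (19.3%) and Trav3-3 (15.3%) rise above the rest in CD8 cells, and Trav3-3 leads the other classes.

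Pairs of an alpha and a beta V gene were repeated most in CD8 cells of the library labelled Fcgr2b knockout. Both genes were known in 335 CD8, 152 Cd4-positive Foxp3-negative and 70 Foxp3-positive cells of that library, and in 4, 9 and 3 cells of the wild-type library, too few to compare. Pairs held by at least 5 cells took 146 of the 335 CD8 cells (43.6%, 38.2 to 49.1%), 18 of the 152 Cd4-positive Foxp3-negative cells (11.8%, 7.17 to 18.1%) and none of the 70 Foxp3-positive cells (upper bound 5.13%). More cells make a pair of 5 easier to reach, and without doublet removal the Cd4-positive Foxp3-negative value was 24.4%; thinned to 1500 UMIs the CD8 value was 20.0% of 55 cells. A repeated V gene pair is not a clone, since cells of different clones can share it.

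Trav13-1 with Trbv13-3 was the most frequent pair, in 66 of the 335 CD8 cells (19.7%, 15.6 to 24.4%), where the product of the genes' shares gives 28.2 cells. Trav3-3 with Trbv13-3 followed with 32 cells, where the product gives 19.1. Trav21-dv12 with Trbv13-1 was held by 8 cells against 1.21 by the product, which is 8 of the 9 paired cells led by Trav21-dv12. Trav13n-1 paired with Trbv13-1 in 7 cells and with Trbv20 in 6, against 1.88 and 0.71. Trav3-3 with Trbv17 was held by 6 cells and 1.58 by the product, 6 of the 10 paired cells led by Trbv17. In Cd4-positive Foxp3-negative cells Trav5-4 with Trbv19 led with 8 cells (1.95 by the product), before Trav6-7-dv9 with Trbv19 and Trav9-1 with Trbv3 with 5 each. Foxp3-positive cells had at most 4 of a pair, Trav9-1 with Trbv20, where the product gives 0.343.

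**Figure D4:**
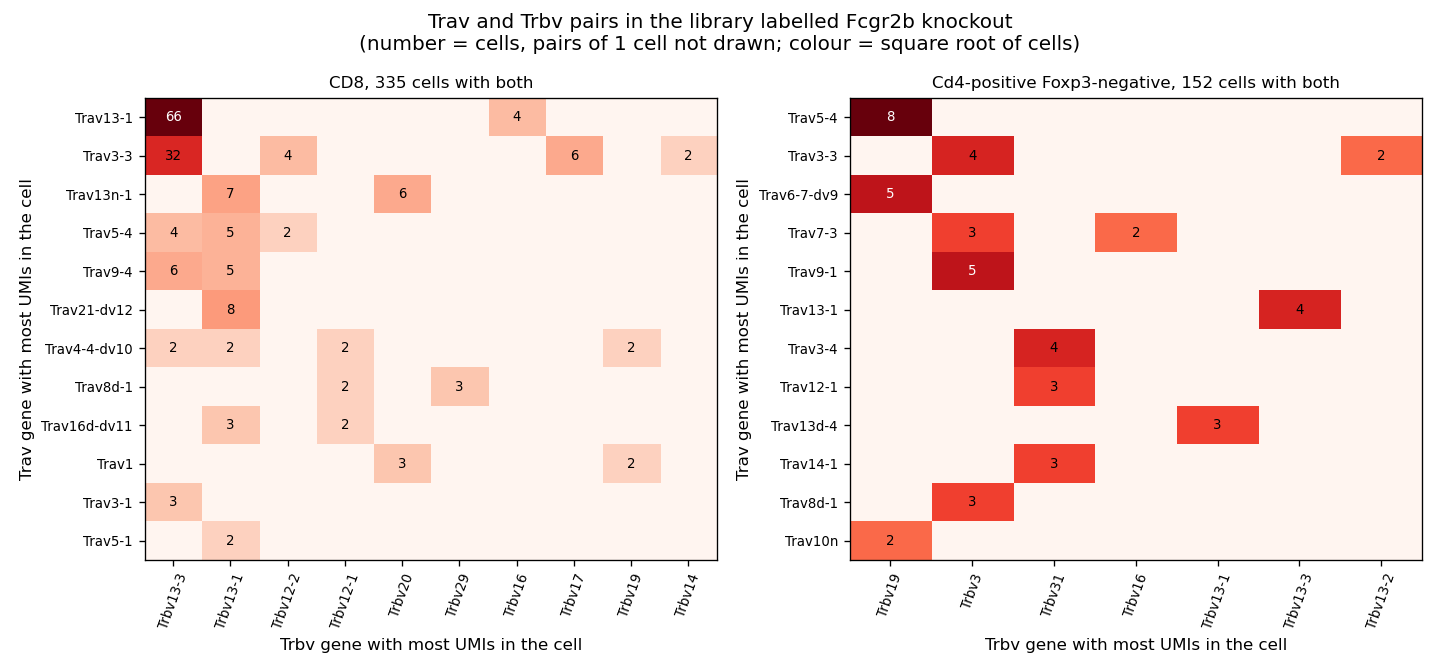
Cells per pair of leading Trav (vertical axis) and Trbv gene (horizontal axis) in the library labelled Fcgr2b knockout, CD8 on the left and Cd4-positive Foxp3-negative on the right, for the genes with most cells in pairs held by 2 or more cells. The pair Trav13-1 and Trbv13-3 holds 66 of 335 CD8 cells, and the largest pair on the right 8 of 152.

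The CD8 cells led by Trbv13-3 carried 2 alpha genes above all. Of the 245 cells, 148 had a Trav UMI, and 124 had a UMI of Trav13-1 or Trav3-3. Trav13-1 was found in 38% (31.9 to 44.4%) and Trav3-3 in 24.1% (18.9 to 29.9%), against 3.25% and 6.32% of the 554 CD8 cells led by another Trbv gene. Among the 148 cells with a Trav UMI, 93 had Trav13-1 and 59 had Trav3-3. A UMI of each was found in 28 cells, that is in 30.1% of the Trav13-1 cells. Of the cells without Trav13-1, 20.4% had Trav3-3. These include all cells without any Trav UMI, so the 2 percentages cannot be compared and show no preference for both genes in a cell. Trav9-4, the next gene after Trav3-3 in the locus, was found in 11% and 2.35%. Median depth was 6290 and 5770 UMIs.

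A T cell can carry 2 alpha chains, and V genes left unrearranged on the chromosome can be transcribed too, so co-detected genes were listed over both libraries and all 3 classes. Trav13-1 and Trav3-3 were seen together in 40 cells and lie 121 kb and 12 genes apart. Trav3-3 and Trav9-4, 10.2 kb apart, shared 28 cells, which is 36.4% of the cells with Trav9-4. Trbv13-2 and Trbv13-3, 8.75 kb apart, shared 34 cells, 23.6% of those with Trbv13-2. Trbv12-2 and Trbv13-3, 11.3 kb apart, shared 20 cells. Cells with UMIs of 2 or more Trbv genes were 14.1%, 20.5% and 17.6% of the Trbv-positive cells of the 3 classes in the library labelled Fcgr2b knockout, and without such cells Trbv13-3 still led 30.7% of CD8 cells.

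The RNA state of the CD8 cells led by Trbv13-3 was then set beside that of CD8 cells led by another Trbv gene in the same library, for 19 state genes chosen after earlier results were known. All receptor genes were left out, and a gene was called past 2-fold on a log2 scale with 5 CPM added, if its mean was at least 20 CPM. Over all 5494 genes 0.874% were called (10 higher, 38 lower), and of the 18 state genes at that level 0 were higher and 4 lower, with a median log2 ratio of 0.04 over the list and 0.01 over all genes. Slamf6, a receptor of stem-like T cells, was 5.35 CPM (2.67 to 9.57) in Trbv13-3 cells and 37.7 CPM (32.2 to 43.8) in the others, a log2 ratio of -2.04. Tcf7, the transcription factor of the same state, was 9.23 and 31.3 CPM (-1.35), Gzmc, a granzyme, 55.4 and 147 CPM (-1.34), and Ifng, which encodes interferon gamma, 406 and 873 CPM (-1.10).

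Other genes of the list stayed within 2-fold. Pdcd1, which encodes PD-1, was 373 CPM in Trbv13-3 cells and 267 CPM in the others, Lag3, another inhibitory receptor, 346 and 275 CPM, Havcr2, which encodes TIM-3, 119 and 131 CPM, and Tox, a factor of exhausted cells, 27.7 and 47.7 CPM. Mki67, a proliferation marker, was 375 and 289 CPM and Cx3cr1, a chemokine receptor of effector cells, 32.1 and 18.6 CPM. Gzmb was 1588 and 2598 CPM. Ifng had a UMI in 73.1% of Trbv13-3 cells and in 63.7% of the others, which goes against its CPM, so no order was read from these shares. Gzmc had a UMI in 8.16% of Trbv13-3 cells and in 9.93% of the others, a narrower gap than in its CPM.

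Read gene by gene over the 8 Trbv genes that led at least 30 CD8 cells, Slamf6 was lowest in Trbv13-3 cells, with 19.2 to 47.5 CPM in the other 7 sets, and its interval overlapped only that of Trbv19 cells (6.23 to 44.7). Tcf7 ranged from 3.59 CPM in Trbv2 cells (1 UMI) to 87.8 CPM in Trbv12-1 cells. Its interval in Trbv13-3 cells (5.56 to 14.4) overlapped those of Trbv13-1 (8.87 to 26.1), Trbv12-2 (5.98 to 27.3), Trbv19 (13.2 to 60.4) and Trbv2 cells (0.091 to 20). It lay below those of Trbv16, Trbv29 and Trbv12-1 cells. Ifng was as low in other sets: cells led by Trbv13-1 and Trbv19 had 355 and 330 CPM, and the high values were those of Trbv16 (1960 CPM), Trbv12-2 (1200 CPM) and Trbv12-1 (1142 CPM). Gzmc reached 612 CPM in Trbv12-1 cells and was 10.4 CPM in Trbv12-2 cells. The cells with the pair Trav13-1 and Trbv13-3 had 3.13 CPM of Slamf6 (2 UMIs) and 402 CPM of Ifng, and those with Trav3-3 and Trbv13-3 had 4 CPM (1 UMI) and 567 CPM. Cells of 1 set share a library and may share a clone, and they are not replicates.

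Seen from the other side, Trbv13-3 led 10 of 131 CD8 cells with a Slamf6 UMI (7.63%, 3.72 to 13.6%) and 235 of 668 without one (35.2%, 31.6 to 38.9%), at median depths of 6527 and 5954 UMIs. It led 12.5% of the 72 cells with a Tcf7 UMI and 32.5% of the 727 without. With a Mki67 or Top2a UMI the share was 34.8% (30.1 to 39.8%) and without one 26.8% (22.6 to 31.4%), at 9396 and 4600 UMIs. With and without a Havcr2 UMI it was 32.1% and 29.4%, and with and without a Gzmc UMI 26.7% (17.1 to 38.1%) and 31.1% (27.7 to 34.6%).

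**Figure D5:**
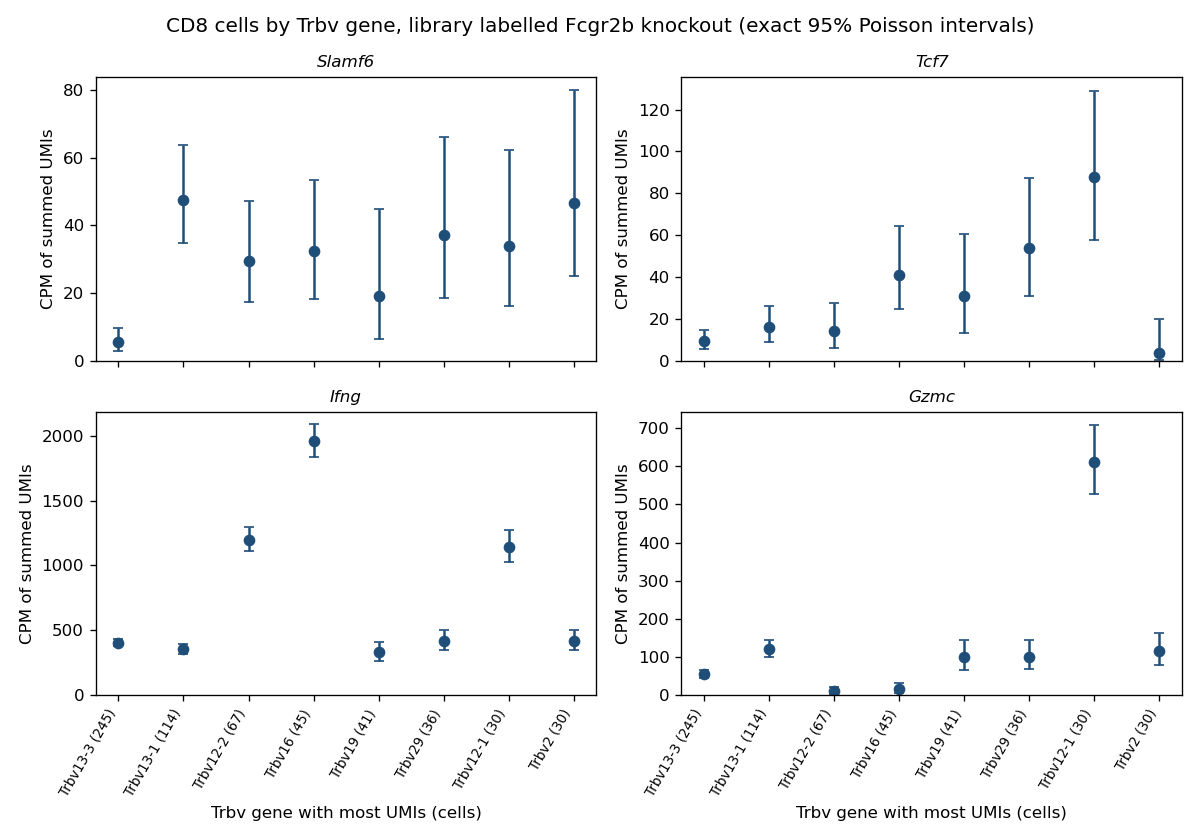
CPM of summed UMIs (vertical axes) of Slamf6, Tcf7, Ifng and Gzmc in CD8 cells of the library labelled Fcgr2b knockout, by the leading Trbv gene with its number of cells (horizontal axis). Each point is the set of cells led by 1 gene, all from that 1 library, with exact 95% Poisson intervals. Slamf6 is lowest for Trbv13-3 (5.35 CPM), while Ifng is high for Trbv16, Trbv12-2 and Trbv12-1.

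As levels, few V genes reached 20 CPM. Between the libraries 2.19% of all genes were past 2-fold in CD8 cells, and the 2 V genes at that level were Trbv13-3, with 76.5 CPM in the library labelled Fcgr2b knockout and no UMI in the wild-type library, and Trbv13-1, with 39.5 and 4.32 CPM. In Cd4-positive Foxp3-negative cells 1.75% of all genes were past 2-fold, and the 2 V genes at that level were Trbv19, at 75.5 and 12.5 CPM, and Trbv3, at 43 and 3.14 CPM. All 4 reached the mean of 20 CPM only through the library where they were high, so their direction was set by that minimum. In Foxp3-positive cells no V gene reached the level (2.42% of all genes past 2-fold), nor did any between CD8 and Cd4-positive Foxp3-negative cells (3%) or between Foxp3-positive and Cd4-positive Foxp3-negative cells (2.23%) in both libraries. These levels carry the gap in V gene recovery, and the share of Trbv13-1 in CD8 cells, 12.9% and 14.3%, did not differ beyond its intervals.

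The partners of the V genes in the receptor and its first signalling steps showed no gap of that size, though they were not all level. In CD8 cells Trbc1 and Trbc2 together were 1441 CPM for wild type and 882 CPM for the other library. The 22 genes of the receptor complex and proximal signalling were all at 20 CPM or more. Between the libraries 0 of them were past 2-fold in CD8 cells, against 2.19% of all genes (median log2 ratios -0.08 and -0.07). In Cd4-positive Foxp3-negative cells it was 0, against 1.75% of all genes (-0.17 and -0.10). At such low shares a count of 0 among 22 genes says little. In CD8 cells Trac was 454 CPM for wild type and 431 CPM for the other library, Trbc2 was 894 and 524 CPM (log2 ratio -0.76), Cd3d 740 and 1140 CPM (0.62), the kinase gene Zap70 246 and 161 CPM (-0.60) and Lck, the kinase bound to CD4 and CD8, 394 and 370 CPM. In Foxp3-positive cells 1 of the 22 was past 2-fold, against 2.42% of all genes, namely Trbc1, at 417 and 173 CPM. Between CD8 and Cd4-positive Foxp3-negative cells 1 of the 22 was past 2-fold in both libraries, against 3% of all genes. It was Cd5, an inhibitory receptor of T cell receptor signalling, at 92.4 and 235 CPM in the wild-type library and 112 and 234 CPM in the other.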

How the data were processed

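UMI counts per gene and barcode were used as deposited by the authors; per the file headers they were made with Cell Ranger 6.1.2, and the build is mm10 (GRCm38) per the submitters' processing notes. The annotation release and the treatment of reads that fit several genes are not given in the sources used here. Cells needed 200 or more genes and no more than 10% mitochondrial UMIs. Doublets were scored against simulated ones (2 per cell), and the top scores, 0.8% of barcodes per 1000 barcodes, were removed (119 and 676 cells). A cell took the V gene with most UMIs of a chain, with 1 UMI enough. Macrophages or monocytes had no CD3 UMI, at least 3 Lyz2 and Csf1r UMIs and no Cd79a or Cd79b UMI, and B cells the reverse. Cells with a Foxp3 UMI and a Cd8 but no Cd4 UMI (15 and 50) counted as CD8, and 26 and 103 Cd4-positive Foxp3-negative cells also held a Cd8 UMI. Class counts were summed per library for CPM. Shares have exact Clopper-Pearson and counts exact Poisson intervals (95%); UMIs made by PCR and cells of a clone are not independent, so they cover counting error only. A count of 0 was read against 3 counts.

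Named V genes were, per chain, the 10 most used over the 6 groups, the 3 with the largest difference in share between libraries per class and between classes, the members of the 5 most frequent pairs per group, and Trav1 and Trav11 with copies. Trav9-4, Trbv17, Trbv21, Trbv29 and Trbv12-1 were named after their values were seen. Members and lists were chosen with earlier results of these data known. Unique stretches, identities and sequences came from GENCODE M21 transcripts. The assignment and the 2-fold call were tested on simulated data. Python 3.11.15, numpy 2.4.6, scipy 1.17.1, pandas 2.3.3, scikit-learn 1.9.0, biopython 1.88 and matplotlib 3.10.9 were used. Alternatives changed the cell filters, the doublet removal, the gates, the assignment, the counting unit, the depth, the joining of copies, the CPM added, the minimum level and the scaling.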

Additional observations from a re-analysis of the deposited data

Results flagged for a closer look

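V gene UMIs also appeared in T cells that the comparisons left out, those with a CD3 UMI but in none of the 3 classes (458 wild-type cells, and 1013 from the library labelled Fcgr2b knockout), at shares above those of macrophages and monocytes. A Trbv UMI was found in 3.49% (2.01 to 5.61%) and 14.8% (12.7 to 17.1%) of them, and a Trav UMI in 4.15% (2.52 to 6.4%) and 9.28% (7.56 to 11.2%). In the library labelled Fcgr2b knockout the leading beta genes of these cells were Trbv3 (19 of 145, 13.1%) and Trbv13-2 (18 of 145, 12.4%).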

How the results depend on the processing

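With 1 library per genotype there was no replicate to leave out. No paired analysis was possible because each group has 1 library. Over the leading shares, pair shares and counts past 2-fold, 152 values under other settings stayed within the interval of the value given (or within 1.5 times the count) and 35 did not. No wild-type CD8 cell was led by Trbv13-3 or Trav13-1 under any of these settings. Wild-type CD8 cells held 0 UMIs of each gene, so settings that only remove cells or counts could give nothing else. Without doublet removal, which adds cells, Trbv13-3 led 0 of 68. Values below are for the library labelled Fcgr2b knockout unless the wild-type library is named, and the cause of each shift was not tested. Few wild-type cells had a Trbv gene (62, 73 and 17 in the 3 classes), so wild-type shares have wide intervals.

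Counting each Trav and Trbv pair once moved Trbv13-3 in CD8 cells from 30.7 to 8.78%, Trav13-1 from 19.3 to 6.76%, and Trbv19 in Cd4-positive Foxp3-negative cells from 25.7 to 17.4%. Among only 9 pairs of wild-type Cd4-positive Foxp3-negative cells, Trbv19 moved from 16.4 to 0% and Trav7-4 from 9.09 to 22.2%. Among only 4 pairs of wild-type CD8 cells, Trbv12-2 and Trav3-1 moved from 17.7 and 15.6 to 0%. At least 2 UMIs of the leading gene gave 31.3% for Trbv19 in Cd4-positive Foxp3-negative cells, 27.7% for Trav13-1 in CD8 cells and 0% for wild-type Trav7-4. Without cycling cells Trbv13-3 in CD8 cells was 26.8%, Trbv19 in Cd4-positive Foxp3-negative cells 30.5% and Trav3-3 in Foxp3-positive cells 16.7%. Thinned to 1500 UMIs, wild-type Trbv19 was 6.67% of 15 Cd4-positive Foxp3-negative and 0% of 4 Foxp3-positive cells. Wild-type Trav3-1 was then 6.25% of 16 CD8 cells, and Trbv13-2 24.0% of 25 Foxp3-positive cells. Joining copies gave 23.4% for Trav13-1 in CD8 cells.

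The share of CD8 cells in pairs of at least 5 cells (43.6%) was 37.8% without cells holding 2 or more genes of a chain, 25.0% without cycling cells and 20.0% after thinning. That of Cd4-positive Foxp3-negative cells (11.8%) was 24.4% without doublet removal, 0% with at least 2 UMIs, 5.83% without cells holding 2 or more genes of a chain, 5.88% without cycling cells, 0% after thinning and 18.3% with copies joined. V genes past 2-fold between the libraries, with no minimum level, numbered 13 in CD8, 15 in Cd4-positive Foxp3-negative and 18 in Foxp3-positive cells, and 1 in each comparison of classes; at 100 CPM or more there were 0 in CD8 and 0 in Cd4-positive Foxp3-negative cells, and without cycling cells 1 in the latter.

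Some differences between classes changed sign, in percentage points. The wild-type ones by pairs or with at least 2 UMIs rest on 3 or 4 cells or pairs in the smaller class, so their sign says little. Wild-type Trbv13-2 in Foxp3-positive minus Cd4-positive Foxp3-negative cells (2.18) was -2.24 without doublet removal, -3.6 at 5% mitochondrial UMIs, -12.5 with at least 2 UMIs, -1.49 by UMIs, -11.1 by pairs and -1.79 without cycling cells. In CD8 minus Cd4-positive Foxp3-negative cells, wild-type Trbv13-1 (7.42) and Trbv31 (-8.62) were -11.1 and 2.78 by pairs, wild-type Trav3-3 (4.29) was -16.7 with at least 2 UMIs and -0.162 by UMIs, and Trav3-3 in the other library (5.86) was -1.26 by pairs. After thinning, Trbv31 and Trav7-3 in Foxp3-positive minus Cd4-positive Foxp3-negative cells (-5.52 and -2.09) were 8.17 and 2.04. Without cells led by Trbv13-3, an alternative chosen after seeing the data, the effective number of Trbv genes in CD8 cells was 11.2 in place of 7.32 and of Trav genes 19.7 in place of 12.5.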
